A study of Mus musculus with 8 samples.

Results

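Goblet cells fill the gut lumen with mucus, a gel of the mucin MUC2 and a handful of proteins packed with it. Their secretory products are so abundant that they mark the cell type in expression data. Tuft cells are a different, rare cell of the same epithelium that senses luminal metabolites and releases IL-25, and they are not known for a mucus store. The 8 genes described here were chosen by name as goblet products: Muc2, Fcgbp, Clca1, Zg16, Tff3, Klk1, Spink4 and Agr2. All 8 were found among 53655 gene symbols, and all 8 passed the filter on low counts.

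RNA was measured in tuft cells sorted from the small intestine of naïve mice that carried 2 reporters, with the genotype given as Il25-RFP/+;Chat-GFP(Tg+) for all libraries. Both groups were gated as CD45-negative, EPCAM-positive and IL25-RFP-positive. They were then divided into cells with Chat-GFP (Chat-pos, n = 4 libraries) and cells without it (Chat-neg, n = 4). The labels give no age, sex or number of animals for a library. Chat-GFP is a transgene, and Chat mRNA itself was present in both gates.

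Several libraries stood apart before any goblet gene was considered. Counts in named genes were 1757401 to 2541955 in Chat-pos and 87642 to 1176880 in Chat-neg, with the lowest in Chat-neg replicate 1. One count there is worth 11.4 CPM (counts scaled to a library of 1000000 counts in named genes), against 0.393 to 0.569 CPM in Chat-pos. Chat-pos replicates 2 and 3 were rich in transcripts of Paneth cells, the antimicrobial cells of the crypt base. A list of 15 Paneth markers, all detected, summed to 59413 and 33430 CPM there, against 607 and 470 CPM in Chat-pos replicates 1 and 4 and 799 to 3634 CPM in Chat-neg. Tuft markers were present in both gates, but both gates were sorted on the IL25 reporter. Their presence is thus no independent test of the tuft label. By edgeR at an adjusted p under 0.05, 8 of 20 tuft markers were higher in Chat-pos and 1 was lower (median log2 difference 0.47). The matching shares of the whole set of 8919 genes were 3.62% and 2.87%. All 20 tuft markers were detected, with sums of 26916 to 27550 CPM in Chat-pos and 12711 to 21495 CPM in Chat-neg, and Chat itself averaged 310 ± 36.2 CPM in Chat-pos, with 117 ± 21.3 CPM in Chat-neg (SD, n = 4 each).

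The goblet products were a small part of each library. Together they took 0.0449%, 0.148%, 0.0877% and 0.0294% of named-gene counts in Chat-pos replicates 1 to 4, and 0.0502%, 0.111%, 0.546% and 0.223% in Chat-neg replicates 1 to 4. The share in Chat-neg replicate 3 had an exact 95% binomial interval of 0.533% to 0.559%, and that in Chat-neg replicate 1 one of 0.0365% to 0.0674%, both covering counting error only. Chat-neg replicate 3 was the highest of the 8 libraries, and Chat-pos replicate 4 the lowest. The summed level averaged 774 ± 529 CPM over the Chat-pos libraries, and 2327 ± 2208 CPM over Chat-neg (SD, n = 4 each), and the ranges overlapped. Without Chat-neg replicate 3 the Chat-neg mean was 1282 CPM. In sorted pools such as these, fewer goblet cells in a gate and less goblet RNA per cell cannot be told apart.

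Of the 8 products, 2 fell in Chat-pos and 0 rose (quasi-likelihood test in edgeR, Benjamini-Hochberg adjusted over 8919 genes). At an unadjusted p under 0.05, 5 were lower and 0 higher. The share over all genes was not counted at that threshold, so this count and the unadjusted counts of the marker lists have no background. DESeq2 called 3 lower and 0 higher, and among all 13143 genes with an adjusted p it called 418 lower and 546 higher. With edgeR, 2.87% of all genes tested were called lower and 3.62% higher. With total count scaling the table held 225 higher and 380 lower genes in place of 323 and 256. The median log2 difference was -1.91 over the 8 products and -0.02 over all genes. A negative difference was found for 7 of the 8, where the share over all genes was 51.5%. All Chat-pos libraries lay below all Chat-neg libraries for 3 products, Clca1, Muc2 and Fcgbp, against 7.02% of all genes.

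**Figure D1:**
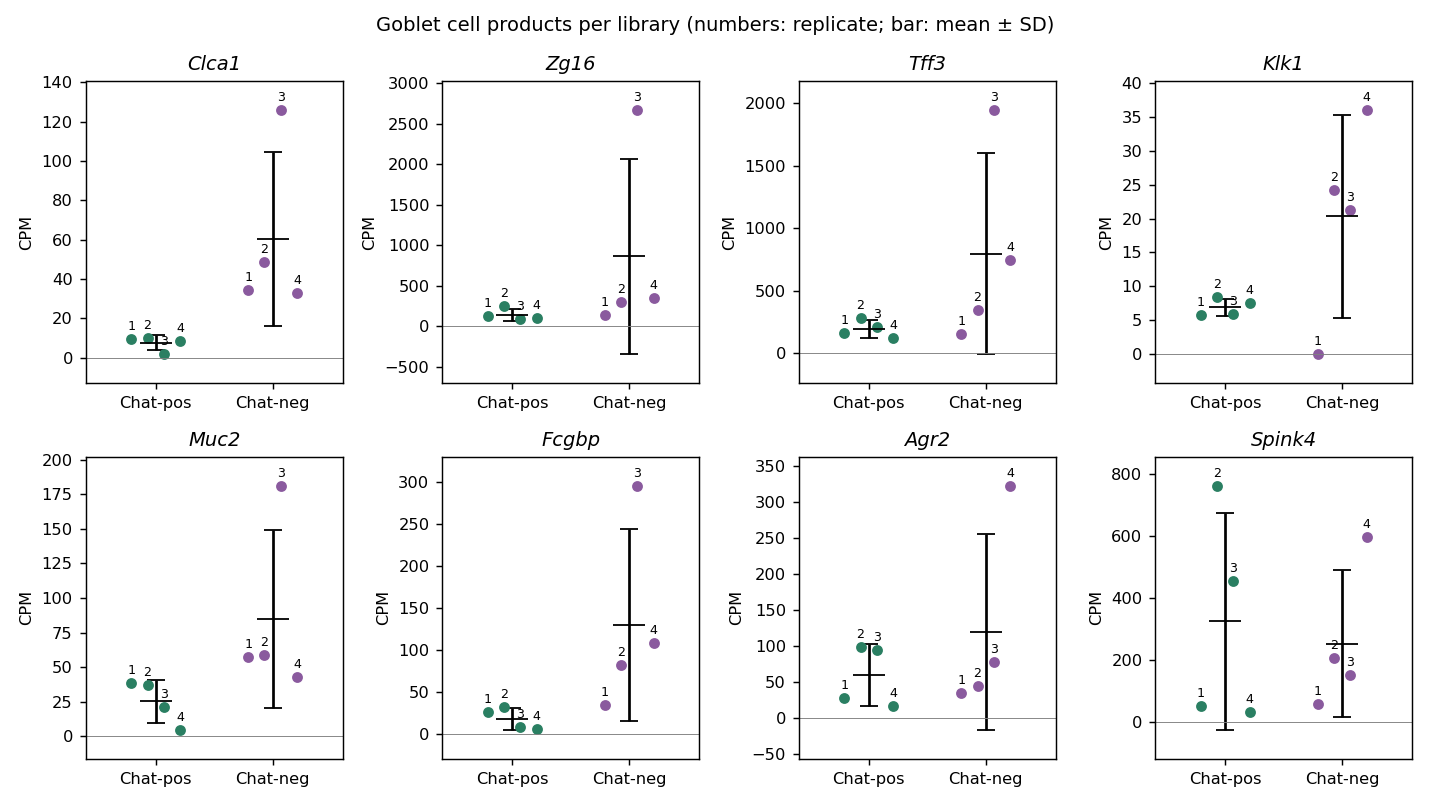
CPM of each goblet product in every library, Chat-pos left and Chat-neg right, with replicate numbers beside the points and mean ± SD as bars. Chat-neg replicate 3 is the highest point for Clca1, Zg16, Tff3, Muc2 and Fcgbp, whereas Agr2 peaks in Chat-neg replicate 4 and Spink4 in Chat-pos replicate 2.

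Muc2 encodes the gel-forming mucin that gives intestinal mucus its scaffold. It stood at 38.1, 36.9, 21.0 and 4.72 CPM in Chat-pos replicates 1 to 4, and at 57.1, 58.7, 181 and 42.6 CPM in Chat-neg replicates 1 to 4. The gates did not overlap, though the gap between the nearest libraries was small and the value in Chat-neg replicate 1 rested on 5 counts. The log2 difference of -1.81 ± 0.76 (SE) did not pass (edgeR adjusted p = 0.248). Without Chat-neg replicate 3 it was -0.92.

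Fcgbp encodes the IgG Fc-binding protein, a large mucus component covalently built into the mucin network. Its levels were 26.7, 31.8, 8.68 and 5.90 CPM in Chat-pos replicates 1 to 4, against 34.2, 82.9, 296 and 108 CPM in Chat-neg replicates 1 to 4. Every Chat-pos library was below every Chat-neg library, with 3 counts behind the lowest Chat-neg value. The difference of -2.93 ± 0.78 on the log2 scale missed the threshold with edgeR (adjusted p = 0.0915) and passed with DESeq2 (adjusted p = 0.0172). Over the alternatives the adjusted p ran from 0.0172 to 0.285.

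Clca1 encodes a secreted metalloprotease that processes mucus and that also belongs to the calcium-activated chloride channel regulators. It had 9.67, 10.1, 1.83 and 8.65 CPM in Chat-pos replicates 1 to 4, and 34.2, 48.5, 126 and 32.7 CPM in Chat-neg replicates 1 to 4. The lowest Chat-neg library exceeded the highest Chat-pos library, and the means were 7.55 ± 3.86 CPM over the Chat-pos libraries and 60.3 ± 44.2 CPM over Chat-neg (SD, n = 4 each). In Chat-pos, Clca1 fell by 3.06 ± 0.55 on the log2 scale (SE; edgeR adjusted p = 0.00978). The call held with each library left out in turn, and without Chat-neg replicate 3 the difference was -2.25 (edgeR adjusted p = 0.00633).

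Zg16 encodes a small lectin that binds Gram-positive bacteria and keeps them away from the epithelium. Its levels were 126, 249, 86.3 and 101 CPM in Chat-pos replicates 1 to 4, and 137, 301, 2664 and 347 CPM in Chat-neg replicates 1 to 4. The gates overlapped, since Chat-pos replicate 2 exceeded Chat-neg replicate 1. Chat-neg replicate 3 was 7.67 times the next library, the largest such ratio among the 8 products. The log2 difference of -2.58 ± 1.03 did not pass (edgeR adjusted p = 0.227) and was -0.84 without that library.

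Tff3 encodes trefoil factor 3, a short peptide of mucosal repair released with mucus. It stood at 163, 282, 206 and 116 CPM in Chat-pos replicates 1 to 4, against 148, 347, 1943 and 747 CPM in Chat-neg replicates 1 to 4. Chat-neg replicate 1 lay within the Chat-pos range and the other Chat-neg libraries above it. The difference of -2.01 ± 0.78 did not pass (edgeR adjusted p = 0.214), and without Chat-neg replicate 3 it was -1.05.

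Klk1 encodes tissue kallikrein, a serine protease that releases kinins from their precursor. It was at few counts, with 5.69, 8.38, 5.94 and 7.47 CPM in Chat-pos replicates 1 to 4 and 0, 24.2, 21.2 and 36.0 CPM in Chat-neg replicates 1 to 4. The 0 of Chat-neg replicate 1 allows a level of up to 34.2 CPM, so that library says little about Klk1, and the other Chat-neg libraries lay above all of Chat-pos. Klk1 fell by 1.71 ± 0.44 on the log2 scale (edgeR adjusted p = 0.0152), and without Chat-neg replicate 3 the difference was -1.75 (edgeR adjusted p = 0.0463). The call was lost without Chat-neg replicate 2 (edgeR adjusted p = 0.0692) or Chat-neg replicate 4 (edgeR adjusted p = 0.113), without a filter on low counts (edgeR adjusted p = 0.0511), and with Chat-pos replicates 2 and 3 both left out (edgeR adjusted p = 0.087). Klk1 has near-identical neighbours, the Klk1b genes, which held 35 counts over all libraries against 128 for Klk1, so its counts are uncertain.

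Spink4 encodes a Kazal-type protease inhibitor made by goblet cells and also found in Paneth cells. Its levels were 52.4, 760, 453 and 33.4 CPM in Chat-pos replicates 1 to 4, and 57.1, 207, 152 and 596 CPM in Chat-neg replicates 1 to 4. The high libraries were Chat-pos replicates 2 and 3 and Chat-neg replicate 4, and the gates overlapped fully. The log2 difference of 0.37 ± 1.14 did not pass (edgeR adjusted p = 0.905). It turned to -0.50 without Chat-pos replicate 2, and to -2.43 with Chat-pos replicates 2 and 3 both left out (edgeR adjusted p = 0.308).

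Agr2 encodes a protein disulfide isomerase of the endoplasmic reticulum that is needed to fold MUC2, and it is the product of the 8 that acts inside the cell. It had 27.9, 98.4, 94.1 and 16.1 CPM in Chat-pos replicates 1 to 4, and 34.2, 44.6, 77.3 and 323 CPM in Chat-neg replicates 1 to 4. Chat-neg replicate 4 stood far above the rest, with Chat-pos replicates 2 and 3 next. The difference of -1.04 ± 0.89 did not pass (edgeR adjusted p = 0.596) and was 0.11 without Chat-neg replicate 4.

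**Figure D2:**
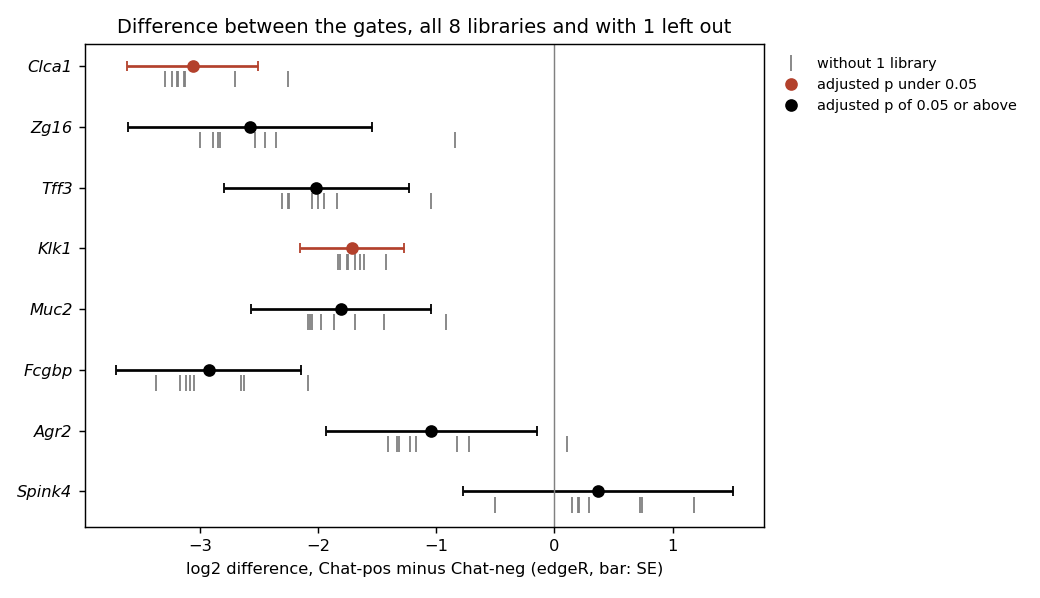
Log2 difference of each product, Chat-pos minus Chat-neg, from edgeR with its SE, and the 8 values with 1 library left out as grey ticks. Clca1 at -3.06 and Klk1 at -1.71 are the 2 that passed, and the tick farthest to the right for Clca1, Zg16, Tff3, Muc2 and Fcgbp is the fit without Chat-neg replicate 3.

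Levels of different products were compared per kilobase of annotated exon. In Chat-pos the order from high to low was Spink4 (681 ± 732 CPM per kb), Tff3 (389 ± 143), Zg16 (112 ± 59.0), Agr2 (45.8 ± 33.4), Klk1 (6.38 ± 1.19), Muc2 (3.53 ± 2.20), Clca1 (2.00 ± 1.02) and Fcgbp (1.74 ± 1.23). In Chat-neg it was Tff3 (1615 ± 1631 CPM per kb), Zg16 (686 ± 958), Spink4 (530 ± 497), Agr2 (92.7 ± 106), Klk1 (18.9 ± 13.9), Clca1 (16.0 ± 11.7), Fcgbp (12.4 ± 10.9) and Muc2 (11.9 ± 9.05), each as mean ± SD over 4 libraries. Among neighbours in the Chat-pos order, Spink4 and Tff3, Muc2 and Clca1, and Clca1 and Fcgbp differed by less than the larger of their SDs. In Chat-neg this held for every pair of neighbours, so that order is not resolved.

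The make-up of the goblet counts differed between libraries. Spink4 took 51.5% and 51.7% of the 8 products' counts in Chat-pos replicates 2 and 3, against 11.7% and 11.4% in Chat-pos replicates 1 and 4. In Chat-neg replicates 1 to 4 its share was 11.4%, 18.6%, 2.79% and 26.7%. The exact 95% interval was 49.8% to 53.1% in Chat-pos replicate 2 and 2.40% to 3.22% in Chat-neg replicate 3, so these shares differ beyond counting error. Zg16 ran the other way. It made up 48.8% of the counts in Chat-neg replicate 3 (interval 47.6% to 50.0%) and 9.84% in Chat-pos replicate 3 (8.54% to 11.3%).

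Tff3 made up 19.1% to 39.5% of the counts. The ratio of Zg16 to Tff3 counts lay between 0.419, in Chat-pos replicate 3, and 1.37, in Chat-neg replicate 3. That of Clca1 to Zg16 lay between 0.0212 and 0.25. The products that peaked in the same library thus still differed in their ratios between libraries.

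**Figure D3:**
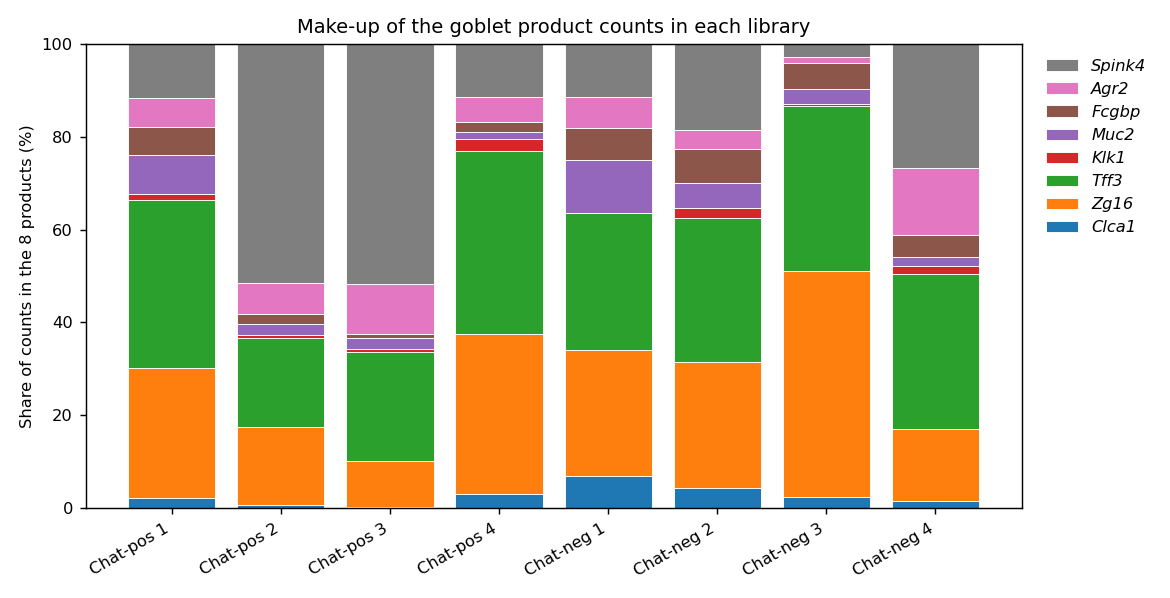
Share of each product in the summed counts of the 8 goblet products, in percent, one bar per library with Chat-pos at the left. Spink4 takes the greatest share in Chat-pos replicates 2 and 3 (51.5% and 51.7%), and Zg16 is largest in Chat-neg replicate 3 (48.8%).

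Whether the products rose and fell together was tested for all 28 pairs over the 8 libraries, on log2(CPM + 1). Pearson's r was positive in 27 of 28 pairs, with a median of 0.53, and 7 pairs passed (exact two-sided permutation test, Benjamini-Hochberg adjustment over 28 pairs). At an unadjusted p under 0.05 there were 10 pairs. With Spearman's rho, 6 pairs passed.

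The passing pairs joined the luminal mucus proteins with each other and Agr2 with Spink4. Fcgbp was the hub. Its r was 0.90 with Zg16 (rho 0.95, exact permutation p = 0.000273, adjusted 0.00764), 0.89 with Muc2 (rho 0.90, exact permutation p = 0.00191, adjusted 0.0149), 0.89 with Clca1 (rho 0.90, exact permutation p = 0.00501, adjusted 0.0234) and 0.89 with Tff3 (rho 0.83, exact permutation p = 0.00228, adjusted 0.0149). Zg16 also went with Tff3 (r = 0.94, rho 0.83, exact permutation p = 0.000942, adjusted 0.0132) and with Clca1 (r = 0.82, rho 0.88, exact permutation p = 0.00873, adjusted 0.0349). Agr2 and Spink4 had an r of 0.88 (rho 0.95, exact permutation p = 0.00265, adjusted 0.0149). Over all 8 libraries, Spink4 had an r of -0.09 with Clca1, 0.22 with Zg16, 0.26 with Muc2, 0.28 with Fcgbp and 0.44 with Tff3, none of which passed (adjusted permutation p from 0.406 to 0.845). The 7 pairs with Klk1 had r between 0.18 and 0.67, and 0 of them passed. For 0 of these 7 pairs was the unadjusted permutation p under 0.05.

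**Figure D4:**
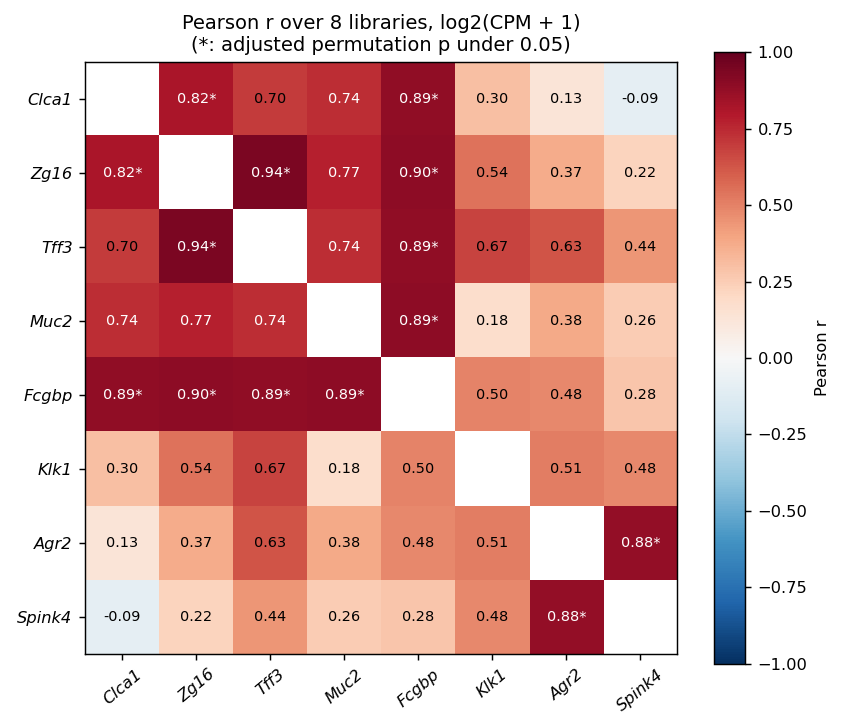
Pearson r of each pair of goblet products over the 8 libraries, on log2(CPM + 1), with an asterisk where the adjusted permutation p was under 0.05. The asterisks fall on 6 pairs among Clca1, Zg16, Tff3, Muc2 and Fcgbp and on Agr2 with Spink4.

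Without the 2 libraries farthest from the median of the first gene of a pair, r of the 7 passing pairs was 0.58 to 0.95. The same check moved the weak pairs in both directions. Zg16 with Spink4 had r = 0.91 without Chat-neg replicate 3 and Chat-pos replicate 3, Zg16 with Agr2 had 0.85 without the same libraries, and Tff3 with Spink4 had 0.79 without Chat-neg replicates 3 and 4. Muc2 with Spink4 had -0.43 without Chat-pos replicate 4 and Chat-neg replicate 3. Tff3 with Agr2 changed little, from 0.63 to 0.70 without Chat-neg replicates 3 and 4. The low r of Zg16 with Spink4 and Agr2, and of Tff3 with Spink4, thus depended on the libraries left out, which differed between Zg16 and Tff3. Leaving out Chat-neg replicate 3 alone left 0 of 28 pairs past the adjusted threshold, 8 at an unadjusted p under 0.05 and a lowest adjusted p of 0.063, with a median r of 0.55. The r of the 10 pairs among Clca1, Zg16, Tff3, Muc2 and Fcgbp, a grouping made after the values were seen, was then 0.43 to 0.90. With group means removed, and permutation within gates, 0 of 28 pairs passed and 6 had an unadjusted p under 0.05, while the median r was 0.50 and Agr2 with Spink4 had r = 0.91. Permutation within gates allows no p under 0.00174, so a pass over 28 pairs was hard to reach there.

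To set the members beside other genes, the profile of each was compared with the mean standardised profile of the other 7, among 7995 genes that averaged 10 CPM or more, the product itself included. Tff3 ranked 4 of 7995 by Pearson r (0.95 over 8 libraries), Fcgbp 12 (0.91), Zg16 69 (0.85) and Muc2 348 (0.72). Clca1 ranked 618 (0.63), Agr2 754 (0.61), Klk1 837 (0.57) and Spink4 1659 (0.43). The genes outside the list whose profiles were most like the mean of all 8 were Prkcsh, Stard10, Eif2b5, Pnn, Ptp4a2, Rps6kb1, Lmf2, Ddx24, Atp13a2 and Ube4b, with r of 0.95 to 0.91 over the 8 libraries. Prkcsh, the closest of these, averaged 87.4 CPM over the Chat-pos libraries, against 124 CPM over Chat-neg.

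Products that moved together can be set beside the sequence in front of their genes. RefSeq promoters on GRCm38.p6 were found for 4 of the 8, and the 250 bases upstream of the start are shown for Muc2 and Fcgbp, which went together (r = 0.89), and for Agr2, which had an r of 0.38 with Muc2 and 0.48 with Fcgbp. Capitals mark matches to short motifs searched on both strands. The first motif, CAGCTG, is an E-box of the kind bound by helix-loop-helix factors. In the other, AGATAA, zinc finger factors of the intestinal epithelium are known to bind. The matches of the 2 motifs do not overlap. Muc2 is at chr7:141690090-141690339 (plus strand), Fcgbp at chr7:28070986-28071235 (plus strand) and Agr2 at chr12:35992675-35992924 (plus strand). The Agr2 window is placed by the RefSeq start, and its end runs past the gene start of 35992907 in the GENCODE M21 annotation.
Muc2: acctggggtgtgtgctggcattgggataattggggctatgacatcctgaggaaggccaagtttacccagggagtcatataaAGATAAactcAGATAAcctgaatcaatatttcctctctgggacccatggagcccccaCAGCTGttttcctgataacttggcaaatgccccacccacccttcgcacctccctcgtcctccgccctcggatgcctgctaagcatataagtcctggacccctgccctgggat
Fcgbp: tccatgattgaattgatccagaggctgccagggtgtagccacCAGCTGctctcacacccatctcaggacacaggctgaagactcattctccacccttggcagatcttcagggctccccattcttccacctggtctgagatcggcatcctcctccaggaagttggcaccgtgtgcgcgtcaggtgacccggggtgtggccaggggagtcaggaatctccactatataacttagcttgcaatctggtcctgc
Agr2: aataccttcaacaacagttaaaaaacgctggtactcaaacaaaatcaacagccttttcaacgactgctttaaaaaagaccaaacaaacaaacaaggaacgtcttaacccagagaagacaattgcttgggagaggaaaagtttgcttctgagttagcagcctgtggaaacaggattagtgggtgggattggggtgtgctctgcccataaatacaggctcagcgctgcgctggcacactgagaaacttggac

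Both Muc2 and Fcgbp hold 1 CAGCTG, at positions -112 and -208 from the start, and Muc2 holds 2 copies of AGATAA. Neither motif is in the windows of Agr2 and Klk1. Over all 32851 promoters of the same length, 13.0% hold CAGCTG and 9.99% hold AGATAA. A match describes these letters, not a bound site.

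Of the 8 genes, 4 lie far apart on chromosome 7. On GRCm38 (GENCODE M21), Fcgbp lies there at 28071236 to 28120862, Klk1 at 44225360 to 44229618, Zg16 at 127050156 to 127087328 and Muc2 at 141690340 to 141754693. Clca1 is on chromosome 3 at 145003817 to 145032776, Spink4 on chromosome 4 at 40920052 to 40931395, Agr2 on chromosome 12 at 35992907 to 36004087 and Tff3 on chromosome 17 at 31125306 to 31129646. None of the 8 shares an exon with another annotated gene.

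Spink4 and Agr2 were high in libraries that were also high in crypt-base transcripts. In Chat-pos replicates 2 and 3, the Paneth-rich libraries, the mean Spink4 level was 14.1 times and that of Agr2 4.37 times the mean in Chat-pos replicates 1 and 4. The same ratio was 1.35 for Muc2, 1.24 for Fcgbp, 1.48 for Zg16, 1.75 for Tff3, 1.09 for Klk1 and 0.648 for Clca1. Chat-neg replicate 4, where Agr2 peaked, had a Paneth sum of 1254 CPM. Chat-neg replicate 2 had a higher Paneth sum of 3634 CPM, yet Agr2 was at 44.6 CPM and Spink4 at 207 CPM there. The 15 stem and progenitor markers, all detected, summed to 1641 CPM in Chat-neg replicate 4, against 239 to 534 CPM in the other Chat-neg libraries. In Chat-pos replicates 1 to 4 they summed to 244, 797, 1301 and 260 CPM. Chat-neg replicate 4 was also high in 16 enteroendocrine markers, with 1686 CPM against 593 to 935 CPM in the other Chat-neg libraries and 1177 to 1769 CPM in Chat-pos. Chgb, of that list, stood at 352 CPM in Chat-neg replicate 4 and at most at 8.93 CPM elsewhere. Olfm4, a secreted glycoprotein of crypt stem cells, stood at 18.8, 394, 883 and 8.26 CPM in Chat-pos replicates 1 to 4 and at 45.6, 142, 17.0 and 737 CPM in Chat-neg replicates 1 to 4. The libraries high in Olfm4 were thus those high in Agr2 and Spink4. Of 12 Paneth markers tested 0 were called (5 higher at an unadjusted p under 0.05 with edgeR, 6 higher with DESeq2), and of 14 stem and progenitor markers 0 were called (1 higher and 4 lower at an unadjusted p under 0.05, 0 with DESeq2). The part of these cells in the Spink4 and Agr2 values was not tested.

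**Figure D5:**
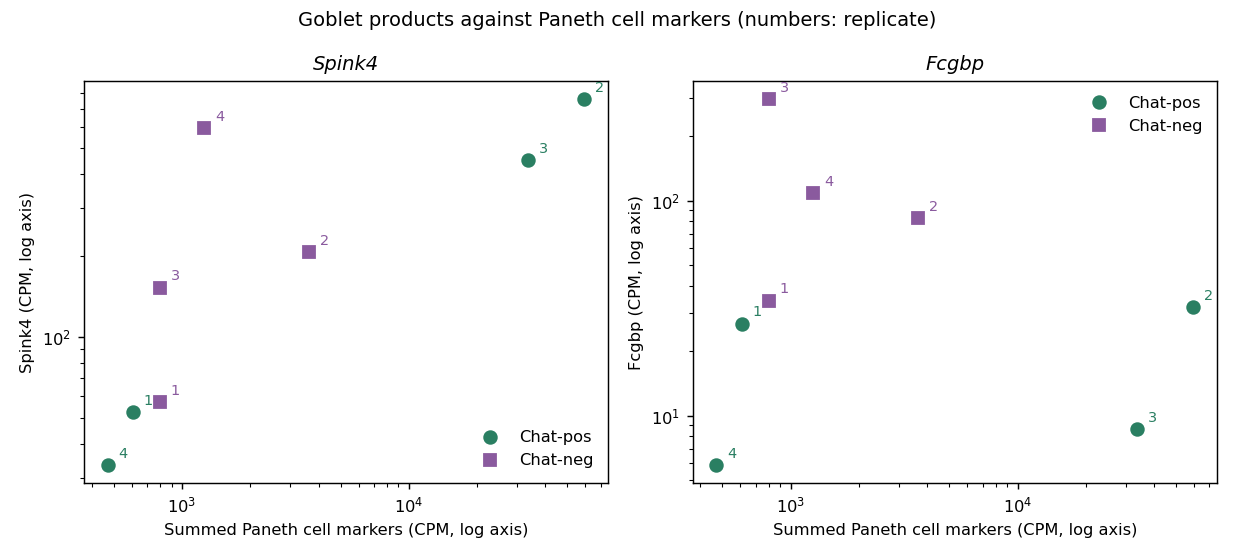
Spink4 (left) and Fcgbp (right) in CPM against the summed CPM of 15 Paneth markers, both axes logarithmic, with circles for Chat-pos, squares for Chat-neg and replicate numbers beside them. Spink4 is high in Chat-pos replicates 2 and 3 (760 and 453 CPM) and in Chat-neg replicate 4 (596 CPM), while Fcgbp is highest in Chat-neg replicate 3, whose Paneth sum is 802 CPM.

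In Chat-neg replicate 3, where the mucus proteins peaked, Paneth and stem transcripts were low and enterocyte and leukocyte sums were the highest of the Chat-neg gate. Its Paneth sum of 802 CPM and stem and progenitor sum of 239 CPM were among the lowest in its gate. Its 18 enterocyte markers summed to 52447 CPM, against 26129 to 48140 CPM in the other Chat-neg libraries and 35289 to 55010 CPM in Chat-pos. Its 18 leukocyte markers summed to 491 CPM, with 226 to 487 CPM in the other Chat-neg libraries and 21.6 to 435 CPM in Chat-pos. Reg3b, an antimicrobial lectin counted with the enterocyte markers, was highest in Chat-neg replicate 3 at 9861 CPM, against 393 CPM in Chat-neg replicate 4. Fabp1, the most abundant enterocyte marker, went the other way, with 29667 CPM in Chat-neg replicate 3 and 43196 CPM in Chat-neg replicate 4. The top rank of the enterocyte sum within the Chat-neg gate thus rests on Reg3b. Of the 18 enterocyte markers 0 were called (2 higher at an unadjusted p under 0.05, 0 with DESeq2). Of the 6 leukocyte markers that passed the filter 0 were called (1 lower at an unadjusted p under 0.05, 0 with DESeq2). All 6 were negative, with a median log2 difference of -1.89. A gene can pass the filter on low counts through the Chat-neg libraries alone, so these signs and this median carry little weight. Gzma, for one, stood at 1.14, 187, 5.02 and 3.15 CPM in Chat-pos replicates 1 to 4, against 134 to 240 CPM in Chat-neg. Mast cell markers were scarce, with 7 of 8 detected, Mcpt1 at 0 in all libraries and 0 of 8 past the filter. Their sum was 0 to 2.28 CPM in Chat-pos and 0 to 22.8 CPM in Chat-neg, the highest being 2 counts in Chat-neg replicate 1. The part of enterocytes, leukocytes and mast cells in the goblet product values was not tested.

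A wider list of 30 goblet genes outside the 8 products gave no negative median. Of the 12 that passed the filter, 0 were called in either direction (2 higher and 0 lower at an unadjusted p under 0.05 with edgeR, 2 higher and 0 lower with DESeq2), and the median log2 difference was 0.42, with 0 of the 12 negative. Genes of the list that did not pass the filter, Spdef (below) among them, have no part in that median. The 5 most abundant were Muc13, Itln1, Ang4, Guca2a and Ccl6, and several of these are known from other epithelial cells. Itln1 and Ang4 also stand in the Paneth list. In Chat-pos replicates 1 to 4, Itln1 stood at 51.2, 3562, 2987 and 50.4 CPM, Ang4 at 11.9, 2272, 1515 and 50.0, and Ccl6 at 2.28, 248, 219 and 3.54. Their positive differences thus rest on the Paneth-rich replicates 2 and 3. In replicates 1 and 4 none of them exceeded the Chat-neg range. Muc13, a membrane mucin, averaged 1195 ± 109 CPM over the Chat-pos libraries, against 1028 ± 291 CPM over Chat-neg. Guca2a, the precursor of guanylin, averaged 181 ± 76.9 CPM over the Chat-pos libraries and 115 ± 43.2 CPM over Chat-neg. In Chat-neg replicate 3 Guca2a stood at 51.8 CPM, its lowest value.

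Regulators of the goblet lineage were near the limit of detection. Spdef, the transcription factor of goblet maturation, had 3, 8, 5 and 3 counts in Chat-pos replicates 1 to 4 and 1, 5, 0 and 11 counts in Chat-neg replicates 1 to 4. The 0 counts in Chat-neg replicate 3 allow up to 2.55 CPM, in the library with 6426 goblet product counts. Atoh1, which commits cells to the secretory lineage, had 5, 7, 3 and 0 counts in Chat-pos and 0, 2, 2 and 4 counts in Chat-neg, in the same order. Its mean was 1.79 ± 1.39 CPM over Chat-pos and 2.70 ± 2.78 CPM over Chat-neg (SD), also not tested. Both were singled out with their values already known. Among 16 genes of the secretory endoplasmic reticulum, which goblet cells use heavily, 14 were tested and 0 were called (0 higher and 3 lower at an unadjusted p under 0.05, 0 with DESeq2). Their sum was 1667 to 2023 CPM in Chat-pos and 1392 to 2155 CPM in Chat-neg.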

How the data were processed

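The authors deposited 1 table of raw counts per gene symbol; its values are whole numbers with unequal totals. Cells were sorted into SMARTer v4 lysis reagents and libraries made with Nextera XT, per the labels' protocols, which give no strand or molecular identifiers. Per the submitters' processing notes the genome was GRCm38. No aligner, counter or annotation is given in the sources used here. Of 53806 rows, 36 had no gene name. They held 58.6% to 64.6% of counts in Chat-pos and 67.8% to 88.4% in Chat-neg, and stayed out of library sizes and tests. Rows sharing a symbol were summed. Nothing ties a library to separate animals; the p-values therefore reflect spread among libraries that may be technical.

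The quasi-likelihood test of edgeR 4.0.16 was run on the counts (R 4.3.3, TMM scaling, filterByExpr, robust fit, group as the only term, adjusted p under 0.05), so log2 differences are on TMM-scaled counts, while CPM values use named-gene totals. Correlations used exact permutation over 40320 orders. The scripts were tested on simulated data. Alternatives were RLE and total count scaling, other filters, DESeq2 1.42.0, limma-voom with sample quality weights (limma 3.58.1), a replicate block, each library left out and, added after seeing the data, both Paneth-rich libraries left out. The 8 products and the gene lists were chosen with earlier results of these data known. Named besides were the 5 most abundant of the wider goblet list, the 10 genes of most similar profile and leading markers of each cell type. Promoters are from RefSeq (GRCm38.p6).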

Additional observations from a re-analysis of the deposited data

Results flagged for a closer look

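Samples far from the rest of their group were looked for in 18 groups of 4 libraries, the 8 products and their sum in each gate, and 5 were found. Chance alone marks about 1 in 20 groups where values are normally distributed and groups independent. The groups here share libraries, and the sums contain the products, so the 5 cannot be set against that rate. In Chat-neg replicate 3, Clca1 (126 CPM), Zg16 (2664 CPM) and Muc2 (181 CPM) were each far above the other Chat-neg libraries. Agr2 was far above the others in Chat-neg replicate 4 (323 CPM). Clca1 was far below the others in Chat-pos replicate 3 (1.83 CPM, from 4 counts).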

How the results depend on the processing

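Clca1, Zg16, Tff3, Klk1, Muc2 and Fcgbp kept a negative difference under all 16 alternatives. That of Spink4 (0.37) turned to -0.23 with limma-voom and sample quality weights, -0.50 without Chat-pos replicate 2 and -2.43 without both Paneth-rich Chat-pos libraries, and that of Agr2 (-1.04) to 0.11 without Chat-neg replicate 4. With 1 library left out, Spink4 ran from -0.50 to 1.18 and Agr2 from -1.41 to 0.11. The count of products lower in Chat-pos (2) was 1 with no filter on low counts, 1 without both Paneth-rich libraries and 1 to 2 with 1 library left out. With the replicate block it was 0 (3 at an unadjusted p under 0.05), where Clca1 had an adjusted p of 0.122 and Klk1 of 0.0528; the replicate numbers share no stated animal, and same-numbered samples had correlations of 0.0535, 0.0331, -0.0233 and -0.0102. Genes called lower over the whole table (256) were 143 with no filter, 418 with DESeq2, 402 with limma-voom and sample quality weights, 86 without both Paneth-rich libraries and 110 to 309 with 1 library left out; those called higher (323) were 546 with DESeq2 and 138 to 360 with 1 library left out. The median over all genes (-0.02) was -0.14 with total count scaling, -0.12 with DESeq2 (13143 genes) and -0.34 with no filter (32856 genes). Passing pairs (7) were 0 with group means removed, 0 without both Paneth-rich libraries (9 at an unadjusted permutation p under 0.05) and 0 to 7 with 1 library left out, where the 0 was without Chat-neg replicate 3. With group means removed no permutation p can be under 0.00174, and without both Paneth-rich libraries none under 0.00139. A pass was thus possible but hard to reach in those 2 settings. The lowest adjusted permutation p was 0.113 with group means removed and 0.0583 without both Paneth-rich libraries. The median r ran from 0.52 to 0.70, and the summed level from 540 to 934 CPM in Chat-pos and 1282 to 2935 CPM in Chat-neg, with 1 library left out. The cause of these shifts was not tested. Chat-neg replicate 1 held 44 counts over the 8 products, which limits what it can show.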
